A study of Lactuca sativa with 6 samples.

Results

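Gibberellins are plant hormones that promote cell elongation, and in leaves they affect both the division and the expansion of cells. Their last synthetic step is catalysed by 3-beta-dioxygenases, which turn inactive precursors into bioactive gibberellins. DELLA proteins hold back the response in the nucleus. When the hormone binds its receptor, an F-box protein, known as SLEEPY1 in *Arabidopsis* and GID2 in rice, marks DELLA proteins for breakdown. Among the genes downstream are some, not all, of the gibberellin-regulated (GASA) family, which encode short, secreted, cysteine-rich peptides and take part in growth and stress responses.

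The genes described here are those of the deposited expression table whose closest Swiss-Prot protein is described as gibberellin, DELLA or ent-kaurene related. There were 5 such genes among the 2579 of the table. They were a gibberellin 3-beta-dioxygenase 1 gene (Lsat_1_v5_gn_5_133201), a DELLA protein *GAI1* gene (Lsat_1_v5_gn_3_55521), a pair of genes described as gibberellin-regulated protein 6, called *GASA6-A* (Lsat_1_v5_gn_2_90361) and *GASA6-B* (Lsat_1_v5_gn_3_101621) here, and a gibberellin-regulated protein 14 gene, *GASA14* (Lsat_1_v5_gn_4_181920). No gene was described as ent-kaurene related. A wider search of Swiss-Prot and NR descriptions for gibberellin enzymes, receptors, DELLA control and GASA-type peptides found 5 more, namely a *GID2* gene, a *GAST1* gene, an *RSI-1* gene and a pair of *Snakin-1* genes. These names come from proteins of other species. Neither the function of the lettuce genes nor their response to gibberellin was measured, also where they are called gibberellin genes below.

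RNA-seq was performed on young leaves of 1-month-old lettuce plants, with 3 libraries of *LsAP2*-OE plants and 3 of WT plants. The *LsAP2*-OE plants carry the coding sequence of *LsAP2*, a transcriptional repressor gene, under the constitutive cauliflower mosaic virus promoter in place of its own, and both groups are of 1 lettuce cultivar. Whether the *LsAP2*-OE replicates came from 1 transgenic line or several could not be learned from the labels or methods, so an effect of a line and one of *LsAP2* cannot be told apart. The study asked how *LsAP2* overexpression, which leads to small and crinkly leaves, changes gene expression.

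For each gene, the authors' table lists 6 normalized expression values and no counts, so the depth is unknown. *LsAP2* (Lsat_1_v5_gn_3_89681) had values of 214, 209 and 224 in the *LsAP2*-OE libraries, against 25.3, 27.9 and 30.5 in the WT libraries. Its log2 fold change, with its standard error (SE), was 2.95 (SE 0.078, limma adjusted p = 2.15e-08). The 14 leaf genes for Rubisco small chains and chlorophyll a-b binding proteins were measured in every library, with summed values of 18000 to 20858 in *LsAP2*-OE and 8689 to 9770 in WT. This sum joins gene families that moved in opposite directions, as given below. WT replicate 1 stood apart in the 76 genes of dividing cells (histones and proliferating cell nuclear antigen), with a sum of 50837, against 37420 and 39272 in the other WT libraries. The expression table is restricted to genes already called by the authors from the same 6 libraries. P-values of single genes are therefore not independent evidence of a difference, and unchanged gibberellin genes cannot appear. Changes are given as log2 fold changes of value + 0.1, *LsAP2*-OE over WT, and p-values were adjusted over the 2579 genes.

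With an adjusted p below 0.01 as the threshold, 3 of the 5 gibberellin genes rose in *LsAP2*-OE leaves and 2 fell. Over the whole table, 98.7% of genes passed this threshold, with 59.1% higher and 39.6% lower, so the split of the 5 genes is near that of the table. The median log2 fold change of the 5 genes was 1.00, against 1.03 over all genes. Since the authors kept changes of 2-fold or more and rises outnumber falls in both sets, each median lies among the smaller rises. The closeness of the medians is therefore no separate result. The higher genes were the dioxygenase gene, *GAI1* and *GASA6-A*, and the lower ones *GASA6-B* and *GASA14*. The direction differed within the GASA family, and between the *GASA6* genes, which carry the same description. No gene overlapped between the groups, which held for 59.6% of the table with *LsAP2*-OE above WT and for 39.7% with *LsAP2*-OE below WT. In these bulk leaves, fewer cells of a type and less RNA per cell cannot be told apart.

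**Figure D1:**
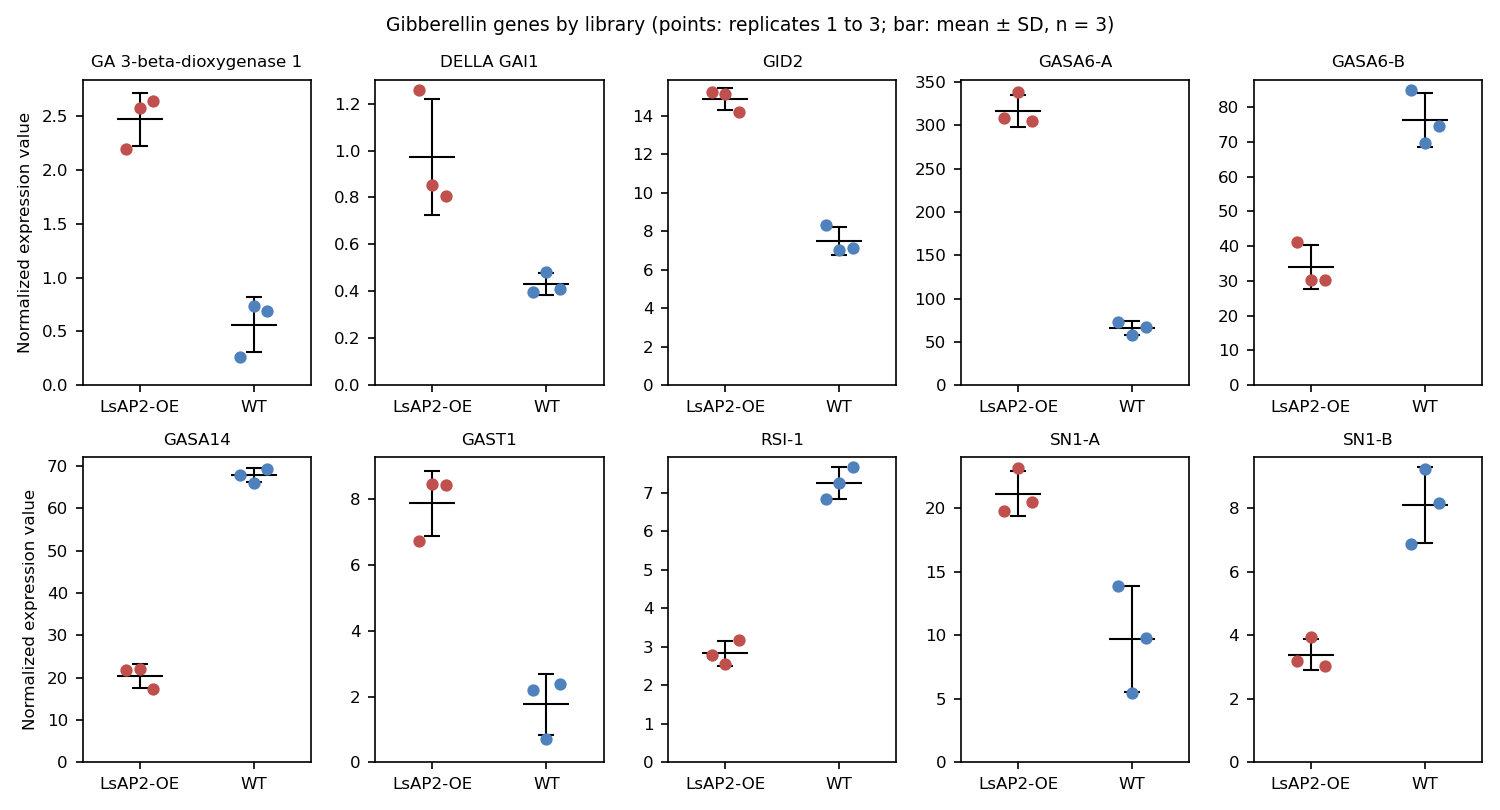
Normalized expression value (y axis, from 0, own scale in each panel) of 10 gibberellin genes in the 3 *LsAP2*-OE libraries (red) and the 3 WT libraries (blue), with the mean and SD as black bars. Of the 10 genes, 6 sit higher in *LsAP2*-OE and 4 lower, and in no panel do the groups overlap.

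The gibberellin 3-beta-dioxygenase 1 gene was higher in *LsAP2*-OE leaves. Its closest Swiss-Prot protein is LE of pea, the enzyme behind the tall and dwarf stems of Mendel's peas, and its NR description is a lettuce gibberellin 3-beta-hydroxylase. It had values of 2.19, 2.57 and 2.65 in the *LsAP2*-OE libraries, against 0.265, 0.733 and 0.687 in the WT libraries. WT replicate 1 was the lowest, and the lowest *LsAP2*-OE library was 2.99 times the highest WT library. The mean was 2.47 ± 0.244 in *LsAP2*-OE and 0.562 ± 0.258 in WT (SD, n = 3), a ratio of 4.40. The log2 fold change was 2.04 (SE 0.32, limma adjusted p = 2.91e-04, 95% interval 1.30 to 2.79). Of the 1548 genes of the table with a positive change, 24.1% had a larger one. The WT values are low, and the coefficient of variation in WT was 45.9%, against a median of 13.05% over all genes. The size of the change rests on the pseudocount, with a log2 fold change of 1.16 at a pseudocount of 1 (adjusted p 3.81e-05 to 0.00181 over all settings).

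The DELLA gene, *GAI1*, encodes the opposite role, a repressor of the gibberellin response, and it was also higher in *LsAP2*-OE leaves. Its closest protein is GAI1 of grape and its NR description is a lettuce DELLA protein. It had values of 1.26, 0.855 and 0.805 in the *LsAP2*-OE libraries, against 0.399, 0.483 and 0.410 in the WT libraries. *LsAP2*-OE replicate 1 was the highest, 1.56 times the lowest of its group, while the other two lay close together. The mean was 0.973 ± 0.248 in *LsAP2*-OE and 0.430 ± 0.0458 in WT (SD, n = 3), a ratio of 2.26. The log2 fold change was 1.00 (SE 0.23, limma adjusted p = 0.00239, 95% interval 0.47 to 1.52), and 87.7% of the genes with a positive change had a larger one. Without *LsAP2*-OE replicate 1 it was 0.81 (adjusted p = 0.00886), and at a pseudocount of 1 it was 0.46. The adjusted p lay between 0.00138 and 0.00886 over all settings that keep the gene.

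The *GID2* gene (Lsat_1_v5_gn_6_109301), described as the F-box protein that marks DELLA proteins for breakdown, was also higher in *LsAP2*-OE leaves. It had values of 15.3, 15.1 and 14.2 in the *LsAP2*-OE libraries, against 8.35, 7.02 and 7.11 in the WT libraries. Both groups were tight, with coefficients of variation of 3.80% in *LsAP2*-OE and 9.89% in WT. Its log2 fold change was 0.98 (SE 0.095, limma adjusted p = 1.43e-05, 95% interval 0.76 to 1.20). The table thus held 3 genes of gibberellin synthesis and DELLA control, the dioxygenase, the DELLA gene and the F-box gene, and all 3 were higher, in a table where 59.1% of genes were called higher. No gibberellin receptor was found in the table by these words. Neither gibberellin levels nor DELLA protein were measured.

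*GASA6-A* was higher in *LsAP2*-OE leaves. It had values of 308, 339 and 305 in the *LsAP2*-OE libraries, against 72.9, 57.6 and 67.1 in the WT libraries. The groups were far apart, since the lowest *LsAP2*-OE library was 4.18 times the highest WT library. Its mean was 317 ± 18.6 in *LsAP2*-OE and 65.9 ± 7.73 in WT (SD, n = 3), a ratio of 4.81. The log2 fold change was 2.27 (SE 0.093, limma adjusted p = 1.57e-07, 95% interval 2.06 to 2.48), and 19.3% of the genes with a positive change had a larger one. It lay between 2.18 and 2.35 under all settings. The order of *GASA6-A* and the dioxygenase gene was not stable, since without WT replicate 2 the log2 fold change was 2.18 for *GASA6-A* and 2.26 for the dioxygenase gene.

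*GASA6-B* went the other way. It had values of 41.2, 30.3 and 30.2 in the *LsAP2*-OE libraries, against 85.0, 69.8 and 74.5 in the WT libraries. Replicate 1 was the highest in each group. The mean was 33.9 ± 6.31 in *LsAP2*-OE and 76.4 ± 7.75 in WT (SD, n = 3), and the WT mean was 2.25 times the *LsAP2*-OE mean. It fell by 1.18 on the log2 scale (SE 0.13, limma adjusted p = 3.20e-05, 95% interval −1.48 to −0.88), and 89.1% of the 1031 genes with a negative change had a larger fall. Both *GASA6* genes have GASA6 of *Arabidopsis* as the closest Swiss-Prot protein and GEG2 of gerbera, like lettuce a member of the Asteraceae, as the NR description. The similarity of their sequences was not measured, so whether reads could be assigned to either gene alone is unknown.

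*GASA14* fell most among the 5 genes. It had values of 21.9, 22.1 and 17.2 in the *LsAP2*-OE libraries, against 68.0, 66.1 and 69.4 in the WT libraries. The WT libraries were within 1.05 times of each other. The mean was 20.4 ± 2.75 in *LsAP2*-OE and 67.8 ± 1.66 in WT (SD, n = 3), and the WT mean was 3.32 times the *LsAP2*-OE mean. It fell by 1.74 on the log2 scale (SE 0.10, limma adjusted p = 7.66e-07, 95% interval −1.97 to −1.51), and 32.1% of the genes with a negative change had a larger fall. GASA14 of *Arabidopsis* promotes leaf growth.

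**Figure D2:**
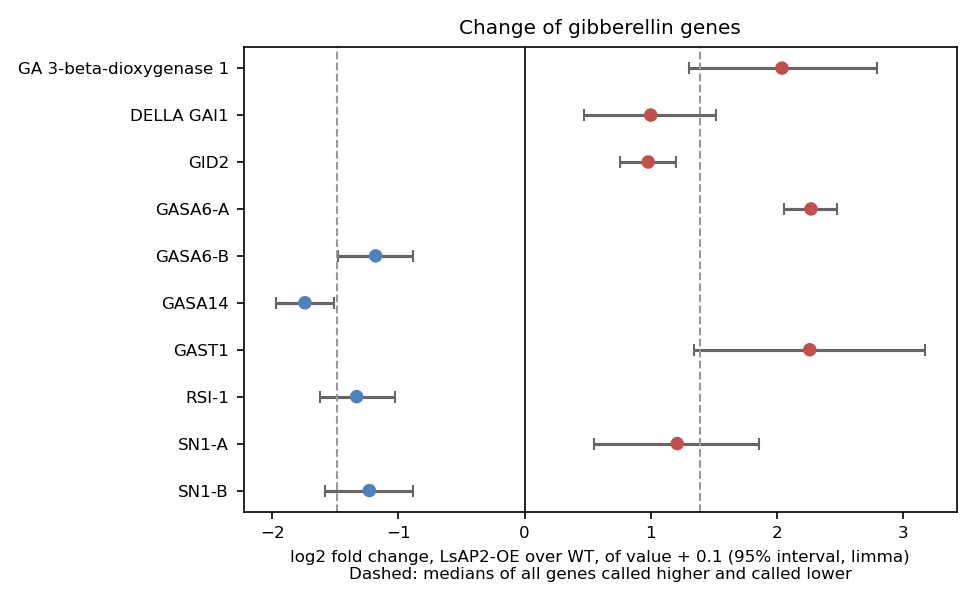
Log2 fold change of value + 0.1 (x axis), *LsAP2*-OE over WT, of 10 gibberellin genes with 95% intervals from limma, and dashed lines at the medians of all genes called higher (1.39) and called lower (−1.49). *GASA6-A* at 2.27, *GAST1* at 2.26 and the dioxygenase gene at 2.04 lie above the upper line, *GASA14* at −1.74 lies below the lower line, and the other genes lie between the lines.

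The pair of *GASA6* genes was compared within each library, where library scaling cancels. The value of *GASA6-A* over that of *GASA6-B* was 7.49, 11.2 and 10.1 in the *LsAP2*-OE libraries, against 0.858, 0.825 and 0.901 in the WT libraries. On the log2 scale the ratio differed by 3.45 between the groups (SE 0.18), with means of 3.24 ± 0.30 in *LsAP2*-OE and −0.22 ± 0.06 in WT (SD, n = 3). The ratio was higher in all 3 *LsAP2*-OE libraries than in any WT library. Since the genes were already known to move in opposite directions without overlap, this separation was given in advance, and the same holds for *GASA6-A* over *GASA14*. The exact permutation test, two-sided, could only give p = 0.1 for these, the smallest that 3 against 3 libraries allow, and adds no evidence. Of the 3 pairs of GASA-described genes compared, *GASA6-A* over *GASA14* differed by 4.01 (SE 0.13). *GASA6-B* over *GASA14*, which both fell, differed by 0.56 (SE 0.16), with ratios of 1.88, 1.37 and 1.75 in the *LsAP2*-OE libraries and of 1.25, 1.06 and 1.07 in the WT libraries. The exact p was 0.1 for each of the 3 pairs, and 0.1 after Benjamini-Hochberg adjustment.

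**Figure D3:**
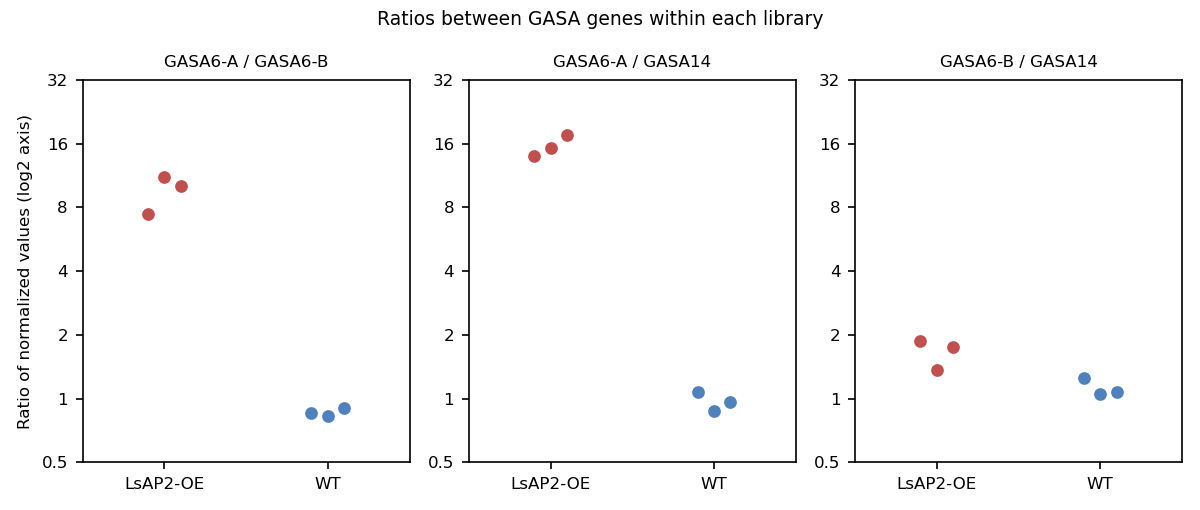
Ratio of the normalized values of 2 GASA genes within a library (y axis, log2 scale) for the 3 *LsAP2*-OE libraries (red) and the 3 WT libraries (blue). *GASA6-A* over *GASA6-B* sits between 7.49 and 11.2 in *LsAP2*-OE and between 0.825 and 0.901 in WT, while *GASA6-B* over *GASA14* differs less between the groups.

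The table holds 7 genes of the GASA type when the names *GAST1*, *RSI-1* and *Snakin-1* are included, of which 3 rose and 4 fell in *LsAP2*-OE leaves, where 59.1% of all genes were called higher and 39.6% lower. Their log2 fold changes lay on both sides of 0, at −1.74 to −1.18 and 1.21 to 2.27, so their median of −1.18, against 1.03 over all genes, describes no common direction. *GAST1* (Lsat_1_v5_gn_9_31921), named after a gibberellin-stimulated transcript of tomato, had values of 6.71, 8.44 and 8.43 in the *LsAP2*-OE libraries, against 2.21, 0.697 and 2.37 in the WT libraries. WT replicate 2 was the lowest, and without it the log2 fold change of 2.26 (SE 0.40, limma adjusted p = 5.63e-04) was 1.73 (adjusted p range over all settings 2.42e-05 to 0.00315).

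*RSI-1* (Lsat_1_v5_gn_2_69401), named after an auxin-induced root transcript of tomato, had values of 2.78, 2.54 and 3.18 in the *LsAP2*-OE libraries, against 6.85, 7.24 and 7.66 in the WT libraries. It fell by 1.33 on the log2 scale (SE 0.13, limma adjusted p = 1.32e-05). The fall is larger than the spread in either group.

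The *Snakin-1* genes, named after an antimicrobial peptide of potato, moved in opposite directions, as the *GASA6* genes did. The one called *SN1-A* here (Lsat_1_v5_gn_4_162200) had values of 19.8, 23.1 and 20.5 in the *LsAP2*-OE libraries, against 13.9, 5.50 and 9.76 in the WT libraries, a log2 fold change of 1.21 (SE 0.28, limma adjusted p = 0.00292). Its WT libraries spread over 2.53 times, with WT replicate 1 the highest and WT replicate 2 the lowest. Without *LsAP2*-OE replicate 2 the adjusted p was 0.0125, and the call was lost (range over all settings 2.88e-04 to 0.0125). *SN1-B* (Lsat_1_v5_gn_1_23380) had values of 3.21, 3.94 and 3.03 in the *LsAP2*-OE libraries, against 6.87, 9.25 and 8.18 in the WT libraries, and fell by 1.23 on the log2 scale (SE 0.15, limma adjusted p = 6.74e-05). The difference between the *Snakin-1* genes was not tested.

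**Figure D4:**
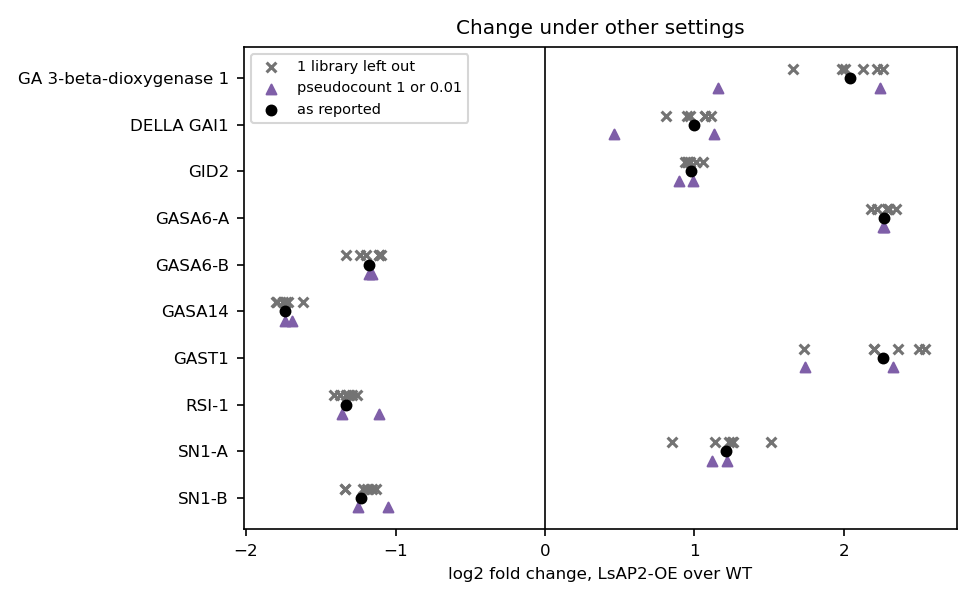
Log2 fold change (x axis), *LsAP2*-OE over WT, of the 10 gibberellin genes as reported (circles), with 1 library left out (crosses) and with a pseudocount of 1 or 0.01 (triangles). No gene changes direction, and the pseudocount of 1 moves the low genes most, the dioxygenase gene to 1.16 and *GAI1* to 0.46.

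Genes that work around the gibberellin pathway in other plants moved in both directions. Among bHLH factors, PIF proteins are bound by DELLA proteins in *Arabidopsis*, and PRE proteins are named after resistance to an inhibitor of gibberellin synthesis. Of the 3 such genes, 1 was higher and 2 were lower, where 59.1% of all genes were called higher and 39.6% lower. *PRE6* (Lsat_1_v5_gn_3_50900) averaged 7.16 ± 1.63 in *LsAP2*-OE and 2.25 ± 0.686 in WT (SD, n = 3), a log2 fold change of 1.64. *PRE5* (Lsat_1_v5_gn_2_88961) averaged 1.51 ± 0.223 in *LsAP2*-OE and 6.71 ± 2.12 in WT (SD, n = 3), and fell by 2.05 on the log2 scale. *PIF7* (Lsat_1_v5_gn_4_110001) averaged 0.293 ± 0.143 in *LsAP2*-OE and 1.20 ± 0.174 in WT (SD, n = 3), and fell by 1.77.

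Of 4 genes of the GRAS family, to which DELLA proteins belong, 2 were higher and 2 lower. The shares over the whole table were 59.1% and 39.6%. *SCARECROW-LIKE 14* (Lsat_1_v5_gn_9_23820) rose by 1.30 and *SCARECROW-LIKE 6* (Lsat_1_v5_gn_3_681), which helps maintain the shoot meristem in *Arabidopsis*, fell by 1.34 on the log2 scale. *SCARECROW-LIKE 18* (Lsat_1_v5_gn_9_88420) also fell, by 1.86, and *SCARECROW-LIKE 15* (Lsat_1_v5_gn_3_78621) also rose, by 0.98. *SCARECROW-LIKE 18* had low values of 0.043, 0.24 and 0.121 in the *LsAP2*-OE libraries, against 0.541, 0.604 and 1.03 in the WT libraries. The *LsAP2*-OE values lie around the pseudocount of 0.1, so the size of this fall rests on it. The call of *SCARECROW-LIKE 15* was lost without *LsAP2*-OE replicate 1 or 2, without WT replicate 1 or 3, and at a pseudocount of 0.01 (limma adjusted p = 0.00688, range over all settings that keep the gene 0.00416 to 0.0280). Some KNOX proteins, not all, restrain gibberellin synthesis in the shoot meristem of several plants. The *knotted-1-like 3* gene (Lsat_1_v5_gn_6_20120) of this homeobox family averaged 9.30 ± 1.55 in *LsAP2*-OE and 26.9 ± 5.65 in WT (SD, n = 3), a log2 fold change of −1.51. Whether this gene acts on gibberellin synthesis was not tested. The *BEL1* homolog (Lsat_1_v5_gn_3_6961), of the family that pairs with KNOX proteins, had a log2 fold change of 2.61. It averaged 2.545 ± 0.233 in *LsAP2*-OE and 0.3557 ± 0.1625 in WT (SD, n = 3). The WT values are low, with a coefficient of variation of 45.7%, so the pseudocount weighs on the size of this change.

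Geranylgeranyl diphosphate is the plastid precursor of gibberellins and of the chlorophyll side chain. The small subunit of its synthase (Lsat_1_v5_gn_9_93760) fell by 1.13 on the log2 scale, with means of 3.99 ± 0.694 in *LsAP2*-OE and 8.81 ± 0.930 in WT (SD, n = 3). Geranylgeranyl diphosphate reductase (Lsat_1_v5_gn_4_108620), which draws on it for chlorophyll, averaged 4.10 ± 0.572 in *LsAP2*-OE and 1.08 ± 0.208 in WT (SD, n = 3), a log2 fold change of 1.84. Expansins and xyloglucan endotransglucosylases loosen the wall of elongating cells, and gibberellin induces some of them in other plants. Of 13 such genes, 11 were higher and 2 lower, where 59.1% of all genes were called higher and 39.6% lower. Their median log2 fold change was 1.75, against 1.03 over all genes and 1.39 over the genes called higher. Whether they respond to gibberellin in these leaves was not tested. *XTH32* (Lsat_1_v5_gn_6_44180) had a log2 fold change of 4.49, with 6.19 ± 0.0796 in *LsAP2*-OE and 0.196 ± 0.112 in WT (SD, n = 3), and the lower genes were expansin A15 (Lsat_1_v5_gn_4_109320), which fell by 1.76, and an *XTH33* gene (Lsat_1_v5_gn_4_6921), which fell by 1.73 on the log2 scale. The search for alpha-amylase, a classical gibberellin target in cereal grains, found only an inhibitor of the enzyme (Lsat_1_v5_gn_4_23340), with a log2 fold change of 1.51.

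Markers of other cells also differed between the groups, in a table where 59.1% of genes were called higher and 39.6% lower. All 76 genes of dividing cells were lower, led by a histone H2B gene (Lsat_1_v5_gn_2_63781) at −2.24 on the log2 scale, with sums of 13987 to 14675 in *LsAP2*-OE and 37420 to 50837 in WT. All 14 genes of the xylem list were higher, led by a *Laccase-2* gene (Lsat_1_v5_gn_9_24380) at 1.45 on the log2 scale. Their sums were 68.5 to 71.5 in *LsAP2*-OE and 26.8 to 32.2 in WT. Apart from a cellulose synthase A subunit 7 gene, the xylem list holds only laccase genes, several with the same description. It is thus mostly a single gene family, and whether its members mark xylem in these leaves was not tested. Of 4 phloem genes, 3 were higher (*SUC2* and a pair of *PP2-A1* genes) and *CLE25* was lower, with sums of 135 to 145 in *LsAP2*-OE and 71.7 to 82.3 in WT. Most of each sum was *SUC2*, with 125 to 133 in *LsAP2*-OE and 57.7 to 66.0 in WT. No marker was listed at 0 in any library. Of the leaf genes, the 6 for Rubisco small chains were higher and the 8 for chlorophyll a-b binding proteins lower. The higher leaf gene sum in *LsAP2*-OE thus comes from the Rubisco genes alone. The largest rise was that of a Rubisco small chain gene (Lsat_1_v5_gn_2_79541), with 37.8 ± 3.52 in *LsAP2*-OE and 0.128 ± 0.0435 in WT (SD, n = 3), and the largest fall that of *CAB21* (Lsat_1_v5_gn_1_95341), with 140.9 ± 7.81 in *LsAP2*-OE and 427 ± 18.8 in WT (SD, n = 3). The part of these markers in the changes of the gibberellin genes was not tested. Without WT replicate 1, the library with the highest dividing cell sum, the 5 gibberellin genes kept their calls, 3 higher and 2 lower. In that setting 1493 genes of the table were called higher and 1007 lower. The other WT libraries still had dividing cell sums of 37420 and 39272, so leaving 1 library out is no test of these markers.

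The described genes most like each of the 5 across the 6 libraries were taken by the root mean square difference of gene-centred log2 values, among 1654 genes with a mean of at least 1. The libraries and their scaling are shared by all genes, and the table was selected for a difference between the groups, so close matches are common. A beta-D-xylosidase 1 gene (Lsat_1_v5_gn_6_19060) was closest to *GASA6-A*, at 0.054, with means of 8.55 ± 0.677 in *LsAP2*-OE and 1.77 ± 0.261 in WT (SD, n = 3). A thiamine thiazole synthase gene followed at 0.066. A 60S acidic ribosomal protein P0 gene (0.070) and the zinc finger gene *VAR3* (0.078) were closest to *GASA14*. An F-box gene (Lsat_1_v5_gn_7_24981, 0.081) and an *SNF12* homolog (0.102) were closest to *GASA6-B*. A *Mut11* gene (0.080) and the receptor-like kinase gene *HERK 1* (0.097), which acts in cell elongation in *Arabidopsis*, were closest to *GAI1*. Matches were looser for the dioxygenase gene, where a delta-12 fatty acid dehydrogenase gene (0.136) and a cyclin-dependent kinase inhibitor 7 gene (0.139) were closest.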

How the data were processed

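RNA-seq libraries of young leaves were analysed, 3 of *LsAP2*-OE and 3 of WT. The authors mapped reads with HISAT2 and kept genes that DESeq called at 2-fold or more and an FDR under 0.01. Tool versions, quantification program and reference build were not given in the sources used here. Deposited by the authors was a signal, a normalized expression value whose normalization is not named. Levels of different genes entered ratios and marker sums, which were compared only between libraries. The genes with the highest values weigh most in a sum. Low values showed no common step within a library, so reads could not be recovered. Columns with the authors' own FDR, log2 fold change and direction were not used.

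Values were compared as log2(value + 0.1) in R 4.3.3 (limma 3.58.1, variance trend on, all genes kept, no replicate block), with Benjamini-Hochberg adjustment over 2579 genes at 0.01. The pseudocount understates changes of low genes. The procedure was also run on simulated data in which most genes had no difference. This table was selected for a difference, so that run is no check of the calls made here. Ratios within libraries were compared by an exact permutation test (scipy 1.17.1). Alternatives were pseudocounts of 1 and 0.01, genes with a mean of at least 1, no trend, a replicate block, equal medians within groups, a threshold of 0.05 and each library left out. The genes and 13 word lists were chosen with earlier results of these data known. All genes found by the member rule and the wider gibberellin search are named, as are the largest rise and fall of the other lists (mean of at least 1) and the 2 genes most like each member. *PIF7*, *SCARECROW-LIKE 15* and *18*, *XTH33*, *SUC2* and the *PP2-A1* pair were named after their values were seen. None of the IDs matched the RefSeq gene table (0 matches, Lsat_Salinas_v11), so no sequences or coordinates are given.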

Additional observations from a re-analysis of the deposited data

How the results depend on the processing

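The 5 genes were 3 higher and 2 lower under each alternative that keeps them all. With genes of a mean of at least 1 alone, *GAI1* was not tested and 2 higher genes remained. All 10 gibberellin genes kept their direction under every alternative run, and the one call lost was that of *SN1-A* without *LsAP2*-OE replicate 2. The difference between the *GASA6* genes was 3.33 to 3.62 with 1 library left out. Neither the labels nor the methods say whether replicate numbers pair the samples. Same-numbered libraries had correlations of deviations of −0.014, −0.039 and 0.014, so no shared replicate effect was visible in this table. Matched growth or preparation could not be checked. With the replicate block, *LsAP2* had a log2 fold change of 2.95, and none of the 10 gibberellin genes lost its call. Depth is unknown, so the counting error of the low values of *GAI1* and the dioxygenase gene could not be given.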
